A study of Mus musculus with 4 samples.

Results

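*Sp8* and 8 other transcription factors that give regions of the embryonic forebrain their identity (*Emx1*, *Emx2*, *Lhx2*, *Nr2f1*, *Nr2f2*, *Nkx2-1*, *Otx1* and *Otx2*) were examined in mouse neural stem/progenitor cells (NSPCs) on 4 expression arrays. The members were chosen by gene name, and the choice was made with their ratios and untreated levels known, so those values are given as a description with no test. The 9 genes had 11 of the 55681 probes on the array. Signals well above background in 1 or both channels, on both arrays of 1 genotype or more, were found for 7 of these genes (9 probes) and for 20223 genes in all. The study's methods give Slc:ICR embryos at embryonic day 13.5 as the source of NSPCs. The NSPCs were either wild-type or *Trp53*-/-, the latter from mice obtained separately as *Trp53* heterozygotes. The strain of these mice is not stated, so a difference in strain cannot be told apart from genotype. All NSPCs grew in medium with epidermal and basic fibroblast growth factor. PJ34, an inhibitor of poly(ADP-ribose) polymerases, was given at 20 μM, and untreated NSPCs of the same genotype were the control. On each array, the PJ34 sample was labelled with Cy5 and the control with Cy3. Each genotype had 2 arrays from independently prepared RNA (n = 2), and the dyes were not swapped.

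These factors act early, while the wall of the forebrain is still made of dividing progenitors, and each is strongest in one zone of it. *Sp8*, a zinc finger factor of the Sp family, is strongest at the rostral and medial end, where it acts with the FGF8 signal, and *Emx2* and *Nr2f1* are strongest towards the caudal end. *Lhx2* makes progenitors cortical rather than hem, *Otx1* and *Otx2* mark forebrain and midbrain, and *Nkx2-1* marks the medial ganglionic eminence below the cortex.

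*Sp8* was measured by 2 probes that gave different values, so the letters of one of them are shown. The probe A_55_P2083806 (chromosome 12, 120088145 to 120088204 of mm9, plus strand) has a reading frame without a stop from its first base. The capitals mark codons spaced as a cysteine and the histidine pair of a C2H2 zinc finger, the domain by which Sp factors bind DNA.
*Sp8* probe A_55_P2083806: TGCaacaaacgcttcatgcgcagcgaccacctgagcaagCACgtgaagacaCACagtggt
This domain is alike among Sp factors, and whether the probe binds their transcripts was not tested. The other probe, A_66_P138898 (chromosome 12, 120090880 to 120090939), lies downstream on the same strand and was the brighter one. All values of *Sp8* below are from it unless the other is named. The part of the gene in which each probe lies was not assigned, because the gene table used here is of another build (GRCm38.p6).

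*Sp8* and *Lhx2* were the members whose control level was lower on both *Trp53*-/- arrays than on both wild-type arrays, so the sequence before their annotated starts was read from RefSeq (GRCm38.p6). The table has 15 windows of 250 bases before a start for 8 of the members, and *Otx1* was not among them. TAATTA, a core to which LIM homeodomain proteins such as *Lhx2* bind, was searched on both strands, which for this palindrome are the same match. It was in 1 of 3 windows of *Sp8*, in 2 of 4 windows of *Otx2* and in 4.84% of all 32851 windows. It is in capitals in the window at chr12:118847309-118847558 (plus strand).
*Sp8* window: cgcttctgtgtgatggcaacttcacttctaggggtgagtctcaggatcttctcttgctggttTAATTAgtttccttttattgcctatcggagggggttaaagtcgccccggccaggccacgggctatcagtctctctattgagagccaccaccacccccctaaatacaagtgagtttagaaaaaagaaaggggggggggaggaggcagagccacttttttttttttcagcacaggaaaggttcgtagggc
GGGCGG, the GC box to which Sp factors bind, was searched on both strands too. It was in 1 of 2 windows of *Lhx2*, where it occurs 4 times, and in 32.7% of all windows. Of the 8 members with a window, 6 had it, *Sp8* among them, and *Emx1* also held it 4 times. The matches of *Lhx2* are in capitals in the window at chr2:38339031-38339280 (plus strand).
*Lhx2* window: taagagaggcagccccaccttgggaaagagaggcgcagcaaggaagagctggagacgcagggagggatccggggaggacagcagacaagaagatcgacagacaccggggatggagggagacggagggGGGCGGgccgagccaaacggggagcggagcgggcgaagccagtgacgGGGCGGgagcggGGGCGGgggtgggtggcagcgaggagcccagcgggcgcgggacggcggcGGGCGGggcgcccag
The half-site of p53 was in none of the windows of *Sp8*, *Lhx2* or *Nr2f2*, in 1 window of *Emx2* and in 7.13% of all windows. These are matches of letters only, and binding was not measured.

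Between 21503 and 27154 probes per channel and array were well above background. All 12 markers of neural stem/progenitor cells, *Nes* and *Sox2* among them, were well above background in the control channel of all 4 arrays. The control level of *Trp53* was 8.28 and 8.51 on the wild-type arrays and 7.56 and 7.82 on the *Trp53*-/- arrays, and whether its probe lies in the deleted part is not known. The array of *Trp53*-/- replicate 2 stood apart. *Eif2s3y* and *Ddx3y*, which lie on the Y chromosome, had log2 ratios of 4.22 and 3.12 there and between -0.20 and 0.84 on the other arrays, and *Xist*, which is expressed from an inactive X chromosome, had -1.39 there. Values that rest on this array are therefore given with and without it. The wild-type arrays were scanned in another period than the *Trp53*-/- arrays, so scan period and genotype cannot be told apart in any comparison of control levels. The control level of *Eif2s3y* was 8.96 and 8.47 in wild-type and at background in *Trp53*-/- (6.01 and 6.24), and that of *Ddx3y* was 8.25 and 8.06 against 6.04 and 6.17, also at background. Y-linked signal therefore moved with genotype in the control channel, and its part in the control levels cannot be told apart from that of genotype.

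In untreated cells *Sp8* was well above background on both wild-type arrays and on neither *Trp53*-/- array. Its control level, a log2 intensity normalized between arrays, was 9.20 and 8.70 in wild-type replicates 1 and 2. In *Trp53*-/- it was 6.22 and 6.68, where the lowest control signals well above background were 6.49 and 6.40. Both wild-type levels were high and both *Trp53*-/- levels were at the limit of detection, with no overlap and a gap of 2.03 between the groups. Groups of 2 arrays can separate without a difference, and the share of all genes that separated is not given. Here and below, lack of overlap is therefore a description. The means were 8.95 ± 0.35 (SD, n = 2 arrays) and 6.45 ± 0.32. By this probe the mean of untreated *Sp8* was therefore at least 5.17-fold higher in wild-type NSPCs, a limit that does not hold for each array. The dim other probe differed by -0.19 on the log2 scale, and the mean of the 2 probes by -1.34.

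With PJ34, the *Sp8* signal was lower on both wild-type arrays and clearly higher on 1 *Trp53*-/- array. The log2 ratios of PJ34 over control were -0.90 and -0.50 in wild-type and 0.18 and 1.21 in *Trp53*-/-. The groups did not overlap. The PJ34 signal was well above background in its own channel on both *Trp53*-/- arrays, and the control signal on neither. On *Trp53*-/- replicate 1 the PJ34 level of 6.41 was still below the lowest control signal well above background (6.49). The sign of the ratio on this array is therefore not established. The mean in wild-type was -0.70 ± 0.28 (SD, n = 2 arrays), a 1.63-fold lower signal, and 238 genes had a lower ratio. In *Trp53*-/- the mean was 0.69 ± 0.72. Since its control signal was not above background, a lower limit of 1.48-fold holds for this mean over 2 arrays, and not for each array. The increase was that of replicate 2, the array with the Y-linked signal in the PJ34 channel, and without that array no increase can be given. The wild-type ratio minus the *Trp53*-/- ratio was -1.40 on the log2 scale as measured, -0.89 without *Trp53*-/- replicate 2 and -1.91 without replicate 1. These values rest on a *Trp53*-/- control signal at background.

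**Figure D1:**
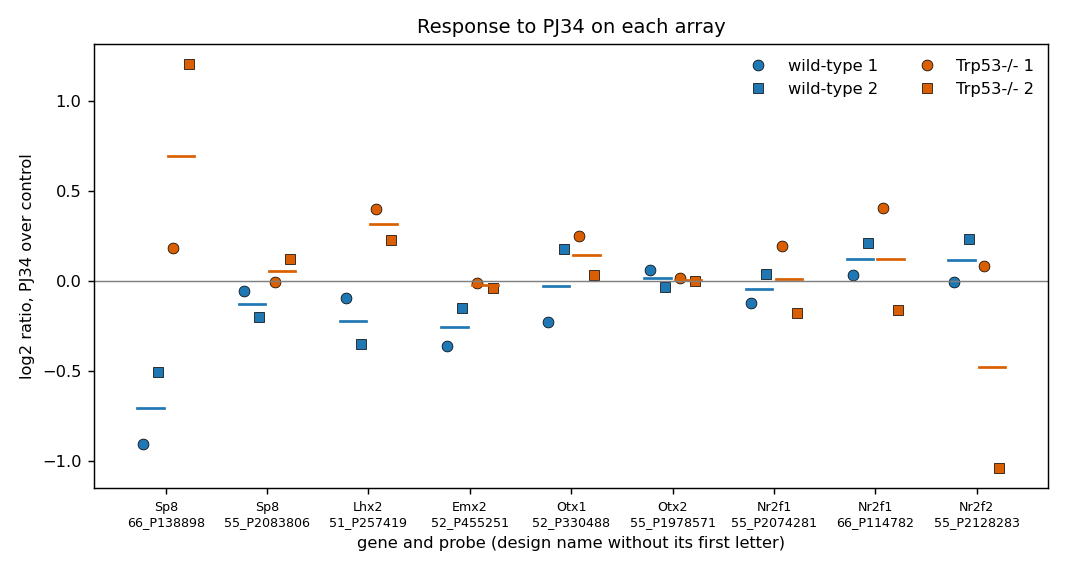
Log2 ratio of PJ34 over control (vertical axis) for the 9 probes of 7 genes that were kept, with a circle for replicate 1 and a square for replicate 2 of each genotype and a short line at the mean of the 2 arrays. *Sp8* in its brighter probe lies below 0 on both wild-type arrays, and its *Trp53*-/- arrays (0.18 and 1.21), whose control signal was at background, lie far apart.

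In order of level, *Sp8* was highest in untreated wild-type NSPCs, with 8.95 ± 0.35 (SD, n = 2 arrays). PJ34-treated wild-type NSPCs followed with 8.25 ± 0.07, PJ34-treated *Trp53*-/- NSPCs with 7.14 ± 1.04 and untreated *Trp53*-/- NSPCs with 6.45 ± 0.32. The first 3 of these conditions did not overlap with each other, although the PJ34-treated *Trp53*-/- arrays, at 6.41 and 7.88, were far apart. The 2 lowest conditions overlapped. A bias of a dye for the probe was not tested, and it would enter each step between a treated and an untreated sample.

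The zinc finger probe of *Sp8* gave a dim signal throughout. Its control level lay between 6.42 and 6.63 over the 4 arrays, and only wild-type replicate 1 was well above background in the control channel. The log2 ratios of -0.05 and -0.20 in wild-type and -0.01 and 0.12 in *Trp53*-/- were all small. With the control signal near background, no order of the genotypes is read from this probe.

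**Figure D2:**
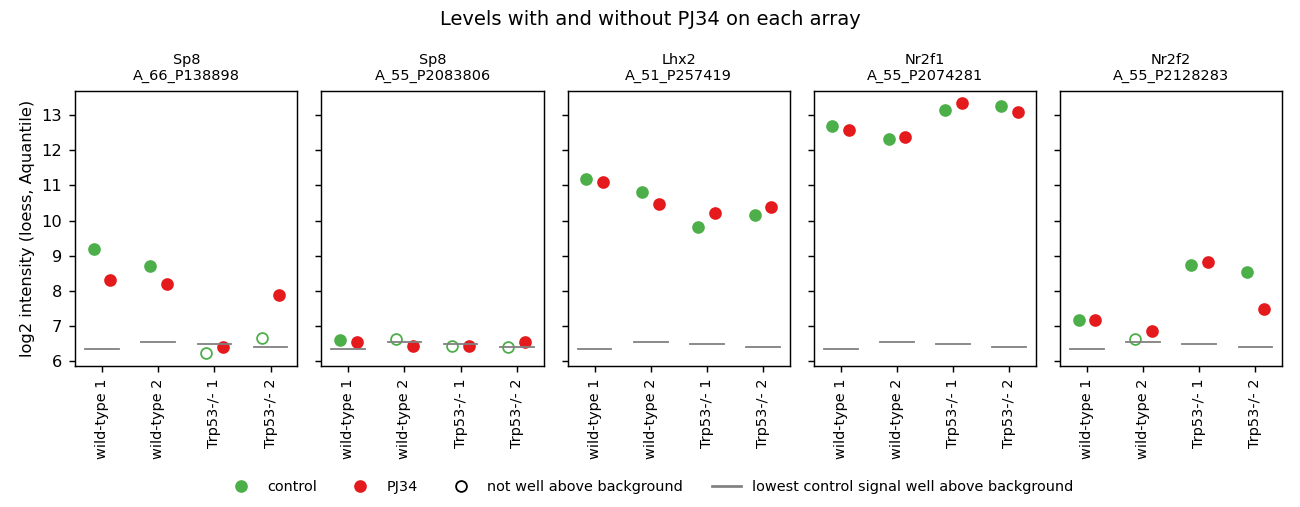
Log2 intensity (vertical axis) of control (green) and PJ34 (red) channels on each array for the 2 probes of *Sp8* and the probes of *Lhx2*, *Nr2f1* and *Nr2f2*. Open circles were not well above background and grey lines give the lowest control signal that was, and the control signal of *Sp8* in *Trp53*-/- lies near this line.

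*Lhx2*, the LIM homeodomain factor of cortical progenitors, was well above background in every channel. Its control level was 11.19 and 10.82 in wild-type and 9.81 and 10.16 in *Trp53*-/-. As for *Sp8*, both *Trp53*-/- arrays were lower and the groups did not overlap. The difference was -1.02 on the log2 scale, 2.03-fold lower in *Trp53*-/-, and lay between -1.20 and -0.84 when any 1 array was left out. It was -0.66 with Cy3 centred on its median and -0.88 with the scanner software's values, both under 2-fold. The log2 ratios of PJ34 over control were -0.10 and -0.35 in wild-type and 0.40 and 0.23 in *Trp53*-/-. The arrays of the 2 genotypes again lay on opposite sides of 0 without overlap, at -0.22 ± 0.18 and 0.32 ± 0.12 (SD, n = 2 arrays). The difference of -0.54 had 208 genes below it, and it was -0.62 without *Trp53*-/- replicate 2. Unlike the order of the genotypes, the sign in wild-type depended on the centring. With median centring in place of loess, which moved the median over all genes to 0.46 in wild-type and 0.63 in *Trp53*-/-, *Lhx2* had 0.40 and 1.13, against -0.20 and 0.84 for *Sp8*.

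*Emx1* and *Emx2* are homeodomain factors of the dorsal telencephalon. *Emx1* was not well above background in either channel of any array, so no change can be given for it. *Emx2* was well above background in every channel, with control levels of 8.23 and 7.52 in wild-type and 7.56 and 7.72 in *Trp53*-/-. These levels overlapped, and their difference of -0.24 was within the spread of the wild-type arrays (SD 0.50). The log2 ratios were -0.36 and -0.15 in wild-type and -0.01 and -0.04 in *Trp53*-/-. The wild-type arrays were the lower ones without overlap, while the *Trp53*-/- arrays were at 0 within 0.04. With median centring both genotypes were above 0, at 0.12 and 0.46. Both values were still below the median over all genes, which that setting also moved above 0.

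*Otx1* and *Otx2*, homeodomain factors of forebrain and midbrain, changed little. The log2 ratios of *Otx1* were -0.23 and 0.18 in wild-type and 0.25 and 0.03 in *Trp53*-/-, and those of *Otx2* lay between -0.03 and 0.06 on all 4 arrays. For neither gene did the genotypes separate. The control levels of *Otx1* were 7.22 and 6.50 in wild-type and 6.90 and 7.15 in *Trp53*-/-. Those of *Otx2* were 7.53 and 8.87 in wild-type, the widest gap between 2 wild-type arrays among the members, and 7.84 and 7.86 in *Trp53*-/-. The *Trp53*-/- levels of both genes lay between the wild-type levels. *Nkx2-1*, which marks the ventral telencephalon, was printed in 10 spots and was not well above background in either channel of any array.

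*Nr2f1* and *Nr2f2* encode the orphan nuclear receptors COUP-TFI and COUP-TFII. In *Trp53*-/- their control levels were higher than in wild-type, the opposite of *Sp8* and *Lhx2*. *Nr2f1* had 12.70 and 12.33 in wild-type and 13.13 and 13.25 in *Trp53*-/-. Both *Trp53*-/- arrays were higher without overlap, by 0.68 on the log2 scale or 1.60-fold. Its other probe, A_66_P114782, gave 11.51 and 10.61 against 11.80 and 11.78, also without overlap and 0.73 apart in the means. *Nr2f2* had 7.18 and 6.63 in wild-type, where it was well above background on replicate 1 alone, and 8.73 and 8.53 in *Trp53*-/-. The gap between the groups was 1.35 and the difference of the means 1.73, 3.31-fold higher in *Trp53*-/-, and 98 genes had a higher value. With 1 wild-type signal not well above background, this fold is approximate. Over the alternatives the difference lay between 1.45 without wild-type replicate 2 and 2.71 with the scanner software's values.

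The response of both receptor genes to PJ34 was small on 3 arrays. The log2 ratios of *Nr2f1* were -0.12 and 0.04 in wild-type and 0.20 and -0.18 in *Trp53*-/-, and its other probe gave 0.03, 0.21, 0.41 and -0.16. The genotypes overlapped in both probes. *Nr2f2* had -0.01 and 0.24 in wild-type, 0.08 in *Trp53*-/- replicate 1 and -1.04 in replicate 2. The fall was seen on the array of replicate 2 alone, the array on which *Sp8* rose most, and it was outside the range of the other 3. Its mean in *Trp53*-/- was -0.48 ± 0.79 (SD, n = 2 arrays), and 0.08 without replicate 2. On this array *Sp8* and *Nr2f2* were the members with the largest ratios, and the part of the Y-linked difference between its channels in them was not tested.

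Over the 7 members with a kept probe, the median log2 ratio of PJ34 over control was -0.04 in wild-type and 0.01 in *Trp53*-/-, beside 0.03 and 0.03 over all genes tested.

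The genes most like *Sp8* in their 4 ratios were sought among the 15405 genes that were well above background in both channels of all 4 arrays, by Euclidean distance on the log2 scale. The 5 nearest were *H4c4*, *Tmem132e*, *H4c14*, *H4c11* and *H4c12*, at distances between 0.58 and 0.67. The 4 *H4c* genes encode histone H4 and are so alike that their probes may share transcripts. *H4c4*, the nearest, had -0.34 and -0.57 in wild-type and 0.16 and 1.08 in *Trp53*-/-. All 5 genes were below 0 on both wild-type arrays and highest on *Trp53*-/- replicate 2, where they lay between 1.01 and 1.12. Likeness over 4 arrays that share these libraries is a description.

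To see whether other regional genes moved, 92 patterning genes in 6 lists were read from the same limma fit, and 39 of them had a kept probe. In wild-type, 9 rose and 8 fell with PJ34 at *p* and Storey's *q* below 0.05 in limma at any fold, where 24.8% of all genes passed this rule. With median centring 17 rose and 0 fell. That setting moved the median over all genes above 0 and the share of all genes under it is not given, so no result about these genes is read from this count. By the criteria of the study's methods, which also ask for more than 2-fold, none changed, where 0.499% of all genes did. An unadjusted *p* below 0.05 in limma was found for 21. The share of all genes at this unadjusted *p* is not given, here or below, so such counts are a description. Their median log2 ratio was 0.06, beside 0.03 over all genes. The largest increases were those of *Fgf18*, a ligand of the family of FGF8, with 0.87 and 0.61 on the 2 arrays (*q* = 0.000451 in limma) and a control signal well above background on 1 of these arrays, and of *Egr2*, a hindbrain zinc finger factor, with 0.53 and 0.65 (*q* = 0.00185). Among the decreases, *Etv4*, which FGF signalling switches on, had -0.45 and -0.78 (*q* = 0.00142).

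In *Trp53*-/- NSPCs, 5 of these 39 genes rose and 3 fell with PJ34 at *q* below 0.05 at any fold, where 23.3% of all genes passed. None was past 2-fold in limma, where 0.361% of all genes were. At an unadjusted *p* below 0.05 there were 11, with the share of all genes not given. Among the increases, *Gli3*, a transcription factor of hedgehog signalling in the dorsal telencephalon, had 0.90 and 0.58 (*q* = 0.00165). *Tfap2c*, a factor of basal progenitors, passed as well, but its control signal was at background on all 4 arrays and the size of its increase is not given. The largest decreases were those of *Etv4* with -0.56 and -0.55 (*q* = 0.00316) and of *Olig2*, a factor of the ventral telencephalon and of oligodendrocyte progenitors, with -0.52 and -0.55 (*q* = 0.00292). All 4 genes passed without replicate 2 as well. With median centring 26 of the 39 genes rose and 0 fell, and the share of all genes under that setting is not given. It moved the median over all genes above 0 in both genotypes. *Etv4* had 0.05 in wild-type and 0.41 in *Trp53*-/- there, and *Olig2* 0.37 and 0.43. These values were above 0 but still below the median over all genes.

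The response of none of the 39 genes differed between genotypes at *q* below 0.05 in limma's test of the difference. Of all genes, 1.76% passed at any fold and 0.475% past 2-fold. An unadjusted *p* below 0.05 in this test was found for 11 of the 39, with the share of all genes not given. The counts by list that follow are again of PJ34 over control at *q* below 0.05 at any fold. By this rule 24.8% of all genes passed in wild-type and 23.3% in *Trp53*-/-, in either direction. The rostral genes around the FGF source, with 10 of 12 tested, had 4 genes that rose and 2 that fell in wild-type and 2 and 1 in *Trp53*-/-. Of 9 tested subpallial genes, 4 fell in wild-type and 2 in *Trp53*-/-, and 0 rose in either. Of 6 genes of the dorsal pallium and cortical hem, 1 rose in wild-type and 2 in *Trp53*-/-. The diencephalon and eye list had 6 genes tested, with 2 higher and 1 lower in wild-type and 1 higher in *Trp53*-/-. In the midbrain and isthmus list 1 of 4 genes fell in wild-type, and in the hindbrain and spinal cord list 2 of 4 rose. Most *Hox* genes of the last list were not above background, and *Hoxb6* was the only one of them tested.

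In untreated cells, 2 of the 39 genes were higher and 2 lower in *Trp53*-/- than in wild-type at *q* below 0.05 at any fold, where 7.28% of all genes passed. At an unadjusted *p* below 0.05 in limma there were 14, with the share of all genes not given. With Benjamini-Hochberg adjustment 1 passed. *Egr2* was the only one past 2-fold, where 3.78% of all genes were. Its control level was 7.92 and 7.80 in wild-type and 9.06 and 8.85 in *Trp53*-/-, 2.13-fold higher with *q* = 0.023. *Meis1*, a homeodomain factor of the subpallium, was 1.72-fold higher in *Trp53*-/- (*q* = 0.04). *Gsx1*, which patterns the ganglionic eminences, was 1.97-fold lower (*q* = 0.0313) and *Wnt1*, a signal of the midbrain and isthmus, 1.85-fold lower (*q* = 0.0354). The genotypes of these 4 genes did not overlap, which was part of the rule for naming a gene here and adds no support. Without *Trp53*-/- replicate 1 the log2 differences of *Egr2*, *Meis1*, *Gsx1* and *Wnt1* were 0.99, 0.76, -0.88 and -1.05. Without replicate 2 they were 1.19, 0.81, -1.08 and -0.74. With 1 array left in the genotype no test is read. The differences of the 39 genes lay between -0.98 and 1.28 on the log2 scale. *Nr2f2* at 1.73 was above this range and *Sp8*, at background in *Trp53*-/-, was below it, while *Lhx2* at -1.02 was close to *Gsx1* at its lower end. This is a description of members chosen on these values.

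**Figure D3:**
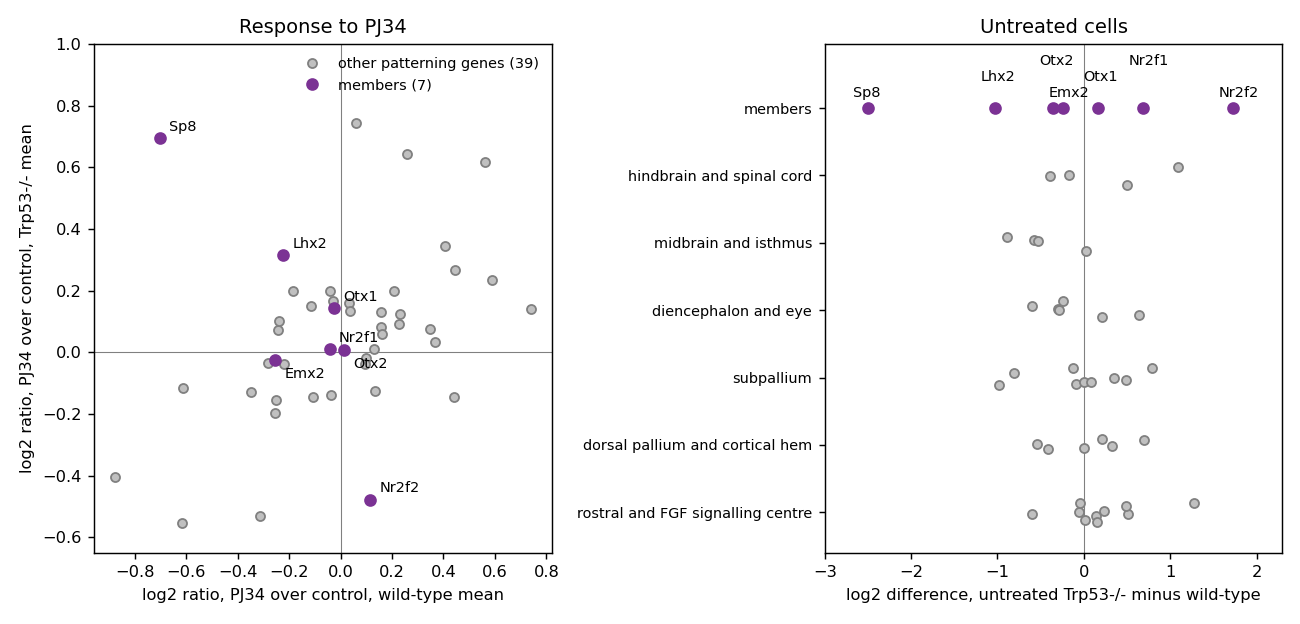
Left, mean log2 ratio of PJ34 over control in wild-type (horizontal) and *Trp53*-/- (vertical) for the 7 members (purple) and the 39 other patterning genes (grey). Right, log2 difference of untreated *Trp53*-/- minus wild-type (horizontal) by list, in which *Sp8* and *Nr2f2* lie outside the range of the other genes (-0.98 to 1.28) and *Lhx2* (-1.02) lies at its edge, and vertical scatter within a list has no meaning.

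Markers of other neural cell types moved with genotype too. In untreated *Trp53*-/- NSPCs, 5 of 8 astrocyte markers were higher at *q* below 0.05, where 7.28% of all genes passed in either direction. The summed control intensity of the 8 was 32831 to 35928 in wild-type and 48033 to 50756 in *Trp53*-/-. Of 8 oligodendrocyte markers 2 were higher and 1 lower, with sums of 34275 to 34571 and 37472 to 43475. Of 9 neuron markers tested 3 were higher and 1 lower, with sums over the list of 8476 to 10686 in wild-type and 7852 to 8224 in *Trp53*-/-. *Gad1*, *Gad2* and *Slc17a6* were not above background in any channel. Of 12 stem/progenitor markers 0 were higher and 1, *Msi1*, was lower, and the sums overlapped, at 140255 to 176240 and 145287 to 147375. *Kdr*, an endothelial receptor gene, was 2.53-fold lower, while *Cdh5*, *Cldn5* and *Tek* were not above background. *Pecam1*, another endothelial gene, was well above background only in the PJ34 channel of both wild-type arrays. The part of these markers in the levels of the members is taken up next. The part of all these markers in the levels of *Sp8*, *Lhx2* and *Nr2f2* was not tested. In bulk RNA, fewer cells that express a gene and less RNA per cell cannot be told apart.

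Of markers of cells that could have come along from the embryo, *Ttr*, *Aqp1*, *Clic6*, *Kcne2* and *Kl* of the choroid plexus were not above background in any channel. *Col1a1*, *Col3a1*, *Dcn*, *Lum* and *Pdgfrb* of meninges and fibroblasts were not either, nor were *Aif1*, *Cx3cr1* and *Ptprc* of microglia and blood. *Foxc1* of the meninges list and *Csf1r* of the microglia and blood list were well above background in both channels of all arrays. Control levels were 8.54 to 8.98 for *Foxc1* and 9.46 to 10.62 for *Csf1r*.

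Some markers changed with PJ34 as well. At *q* below 0.05 in limma at any fold, 24.8% of all genes passed in wild-type and 23.3% in *Trp53*-/-. Of 12 stem/progenitor markers 3 rose and 5 fell in wild-type, and 2 rose and 3 fell in *Trp53*-/-. Of 8 oligodendrocyte markers 2 fell in wild-type, near the share of all genes, and 5 in *Trp53*-/-, and 0 rose. The signs of the markers under median centring are not given here. Of 8 astrocyte markers 1 rose and 2 fell in wild-type, and 3 rose and 2 fell in *Trp53*-/-. Of 9 neuron markers 3 rose in wild-type and 2 in *Trp53*-/-, and 0 fell. *Hes5*, a Notch target of progenitors named here after its values were seen, fell by 1.76 on the log2 scale in wild-type and by 0.65 in *Trp53*-/-, a difference of -1.11 (*q* = 0.0169 in limma). Their part in the ratios of the members was not tested.

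**Figure D4:**
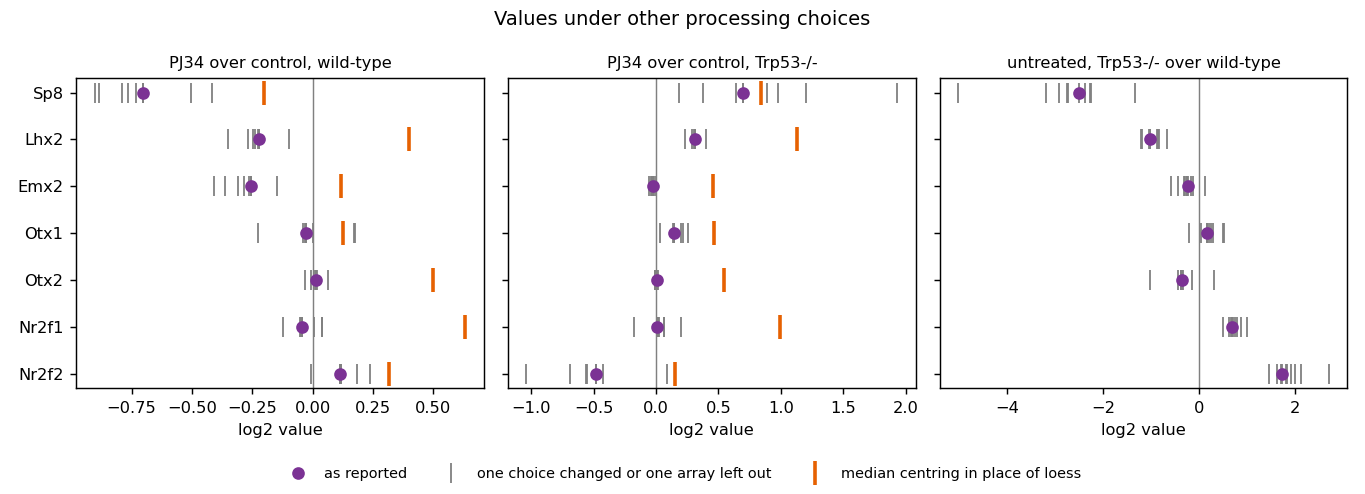
Log2 value (horizontal axis) of each member as reported (purple), with 1 processing choice changed or 1 array left out (grey ticks), and with median centring (orange ticks). The untreated differences of *Sp8* and *Lhx2* stay below 0 and those of *Nr2f1* and *Nr2f2* above 0 in each of 10 alternatives, while median centring moves most ratios upwards.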

How the data were processed

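Expression was measured on 4 two-colour arrays, 2 per genotype. The authors extracted the spots with Agilent Feature Extraction 10.7.3.1, per the file headers. The deposited intensity values used here are the mean of each spot and the median of its local background, and the deposited log10 ratios and the processed Cy3 intensity served as alternatives. That software lists a log ratio of exactly 0 for 29.3% to 33.1% of spots. A normalized table was not used, because its 4 columns could not be matched to arrays by name.

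With limma 3.58.1 in R 4.3.3, the background was corrected by normexp (offset 50), ratios were normalized by loess within arrays without control and outlier spots, and spots of a probe were averaged. Probes with at least 1 channel well above background on both arrays of a genotype were kept (27035, 48.6%), and a gene was read from its brightest probe. Symbols came through RefSeq accessions (GRCm38.p6) for 26300 probes (47.2%) and otherwise from the files. Control levels are Cy3 log2 intensities after Aquantile normalization between arrays. They are set across arrays on slides and scans of their own, so no slide or scan could be a block. A fold against a channel not well above background on both arrays of a genotype is a lower limit on the mean over arrays, open to dye bias. For it each dim array took its probe's signal or, where this was larger, the smallest signal it held well above background.

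One limma fit over all genes and 4 arrays, with a mean per genotype (2 residual degrees of freedom, 10.29 after moderation), tested each mean ratio and their difference, with Storey's *q*. The control levels were fitted in the same way on their own (6.17 degrees of freedom after moderation). On simulated ratios with 200 of 27029 probes changed, 100 of 100 probes were recovered at a log2 change of 1.5 in wild-type and in the difference. For untreated levels 95 of 100 were recovered at 1.5 and 100 of 100 at 2.5, with 15 false calls. The number of arrays limits the precision, and no spot was saturated.

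The members, the lists and the tests were chosen with earlier results of these data known. Of the other patterning genes, those named were, per comparison, every gene called and the 2 largest increases and decreases with *q* below 0.05 whose arrays moved the same way, or did not overlap for control levels. 1 gene that this rule names is not reported here. Alternatives were no background correction, an offset of 16, the scanner software's values (the Cy3 signal relative to its 75th percentile), median centring, scaling between arrays, quantile or median scaling of Cy3, other filters, the mean of a gene's probes, each genotype alone, Benjamini-Hochberg adjustment, the replicate number as a block and each array left out.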

Additional observations from a re-analysis of the deposited data

Results flagged for a closer look

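*Sp8* and *Lhx2* drew attention because the measured ratios of the wild-type arrays were below 0 and those of the *Trp53*-/- arrays above 0. The wild-type ratio of PJ34 over control minus the *Trp53*-/- ratio was -1.40 on the log2 scale for *Sp8* (probe A_66_P138898) and -0.54 for *Lhx2* (probe A_51_P257419). Both genes were chosen with their ratios known, so the opposite directions are a description and were not tested. The value of *Sp8* rests on a control signal at background in *Trp53*-/-, and the sign of its ratio on *Trp53*-/- replicate 1 is not established. For *Lhx2* the opposite directions were not seen with median centring, where both genotypes were above 0, as was the median over all genes.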

How the results depend on the processing

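Of 210 values of members under alternatives, 183 moved by less than the spread between arrays, 24 moved by more, and 3 that exceeded this spread as reported turned in sign, all with median centring. In all, 22 values had another sign than reported, 6 with median centring, 9 with 1 array left out and 7 under other settings. The 3 were *Emx2* in wild-type (0.12) and in *Trp53*-/- (0.46) and *Lhx2* in wild-type (0.40). All 3 were still below the median over all genes, which median centring moved above 0 in both genotypes. The untreated difference of *Sp8* lay between -5.02 with the scanner software's values and -1.34 with the mean of its probes, and its *Trp53*-/- ratio reached 1.93 with the software's values.

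The counts of other patterning genes past 2-fold were small, and several settings moved them from 0 in wild-type, 0 in *Trp53*-/- and 1 in untreated cells. They were 5 and 6 with median centring, 1, 1 and 2 with an offset of 16, 2, 1 and 2 with the software's values, 2 untreated without background correction and 3 untreated with Cy3 centred on its median, which moved the median over all genes to 0.17. Leaving out 1 array gave 0 to 3 untreated and 0 in the other comparisons. At any fold, 17, 8, 0 and 4 genes passed in wild-type, *Trp53*-/-, the difference and untreated cells. These were 9, 2, 0 and 2 with the software's values, and 26 in *Trp53*-/- with median centring, which moved the median over all genes upwards. The shares of all genes under the alternatives of this paragraph are not given. With Benjamini-Hochberg adjustment 1 passed in untreated cells. In the difference 1 passed without background correction or with scaling, and 2 without the filter. Without 1 array the counts were 7 to 17 in wild-type, 6 to 8 in *Trp53*-/-, 0 to 2 in the difference and 0 to 18 in untreated cells. The causes were not tested.

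Arrays with the same replicate number did not deviate together (r = -0.18 over genes in the ratios, 0.08 in the control levels). The replicate number as a block gave 0, 0, 0 and 2 genes past 2-fold and 14, 7, 3 and 8 at any fold. Crossing the numbers, chosen after seeing the data, gave 0, 0, 0 and 2 past 2-fold and 21, 9, 5 and 5 at any fold. A signal at background, as that of *Sp8* in untreated *Trp53*-/-, gives only a lower limit of the fold, and 2 arrays per genotype limit every value.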
